A study of Bos taurus with 12 samples.

Results

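Bovine precursor adipocytes transfected with an agent labelled si were compared with cells transfected with its negative control, labelled si_NC, with 3 libraries in each group and all cells collected 48 h after transfection. Every gene that passed a filter on low counts was taken, which left 16300 of the 29240 genes named in the count table (55.7%). The filter used all 12 libraries of the series, and 15266 genes passed it on the 6 interference libraries alone. The other 6 libraries were transfected with pcDNA3.1-HGFAC (labelled OE) or the empty control pcDNA3.1-NC (OE_NC). They entered the filter, the scaling of the libraries and the estimate of the spread between libraries, but not the contrast of si with si_NC. Cells of both groups were transfected, so the comparison holds no untransfected cells. The labels name no target gene or sequence for si, and they give neither the number of animals nor whether replicates were separate cultures. The p-values below thus rest on the variation among these libraries alone, part or all of which may be technical.

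Precursor adipocytes are the fibroblast-like cells of fat tissue that can mature into lipid-storing cells, and they secrete much of the collagenous matrix around them. In RNA interference a short double-stranded RNA is loaded onto an Argonaute protein, which lowers messenger RNAs with a matching site, and a non-targeting control is transfected in parallel because delivery of the RNA has effects of its own. HGFAC, the gene around which the series was built, encodes a secreted serine protease that activates hepatocyte growth factor.

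Counts assigned to genes summed to between 35918816 and 42703663 in the si libraries and between 28944733 and 32224538 in those of si_NC. The cells carried stromal transcripts, led by VIM at 3430 RPKM and COL1A2 at 1520 RPKM (read counts scaled by exon length and library total, mean of the 6 libraries), while the fat cell hormones ADIPOQ and LEP reached at most 6 and 12 reads in any library. Across genes, si replicate 3 correlated more closely with si_NC replicate 2 (Pearson r = 0.9881 of log2 CPM, a gene's counts relative to the scaled library total) than with si replicates 1 and 2 (0.9854 and 0.9858), while si replicates 1 and 2 correlated at 0.9927. Each of the 76 cytosolic ribosomal protein genes had its lowest si level in si replicate 3 and its lowest si_NC level in si_NC replicate 2. The labels give no batch for these libraries, so results are also given without both of them. Summed levels of 11 preadipocyte and stromal markers were 19100 to 24100 CPM in si and 14400 to 19300 CPM in si_NC. These ranges overlapped, because si_NC replicate 2, the highest control, lay above si replicate 2. The sums of 6 epithelial markers were 3.33 to 4.46 CPM in si and 1.94 to 2.5 CPM in si_NC, with EPCAM at most at 2 reads. Like those of the stromal markers, the ranges of the sums overlapped for markers of muscle (478 to 632 against 478 to 573 CPM), endothelium (55.7 to 78.2 against 53.8 to 77.5 CPM), immune cells (10.2 to 10.8 against 8.93 to 11.1 CPM) and mature adipocytes (20.8 to 25 against 19.2 to 31.8 CPM). Bone markers, mostly SPP1, stood at 151 to 165 CPM in si and 166 to 252 CPM in si_NC. The part of these cell types in the results was not tested, and in bulk RNA fewer cells of a type and less RNA per cell cannot be told apart.

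HGFAC messenger RNA was near the limit of these libraries. It had 31, 23 and 22 reads in the si libraries and 25, 21 and 28 in the si_NC libraries, or 0.843, 0.525 and 0.605 CPM against 0.818, 0.738 and 0.935 CPM. The groups overlapped, since si replicate 1 lay above 2 of the si_NC libraries. The log2 change was −0.35 ± 0.27 (SE; edgeR adjusted p = 0.512; exact two-sided permutation p = 0.3, where 3 against 3 libraries cannot go below 0.1), and the 95% interval ran from 0.529-fold to 1.16-fold. A fall to below 0.529 of the control level is thus outside the interval, and smaller changes were not detectable at this depth.

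With si, 414 of the 16300 genes changed (2.54%), 150 upward (0.920%) and 264 downward (1.62%), at an adjusted p under 0.05 in edgeR's quasi-likelihood test. At an unadjusted p under 0.05 there were 3083 of the 16300, in either direction, which is the share to set beside the unadjusted counts of gene lists below. Most changes were small: the median log2 change was 0.53 among the genes that rose and −0.38 among those that fell, against 0.02 over all genes tested, and 29 genes moved at least 2-fold. The 3 si levels lay wholly above or below the 3 si_NC levels in 413 of the 414, and in 3397 of all genes tested (20.8%). Most of the falls lay in genes with many reads. Of the 4075 genes with the most reads, above 33.5 CPM, 49 rose and 201 fell, whereas of the 4075 with the fewest, below 1.33 CPM, 18 rose and 1 fell. The standard error narrowed over the same range, from a median of 0.447 to 0.0853 on the log2 scale, and the changes called shrank from a median of 1.48 to 0.361. Calls in either direction made up 6.13% of the 4075 genes with the most reads and 0.466% of those with the fewest. Of all genes tested 54% had a positive change, which is the share to set beside the counts of positive and negative changes below. The shares of all genes set beside gene lists below are not matched for level.

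**Figure D1:**
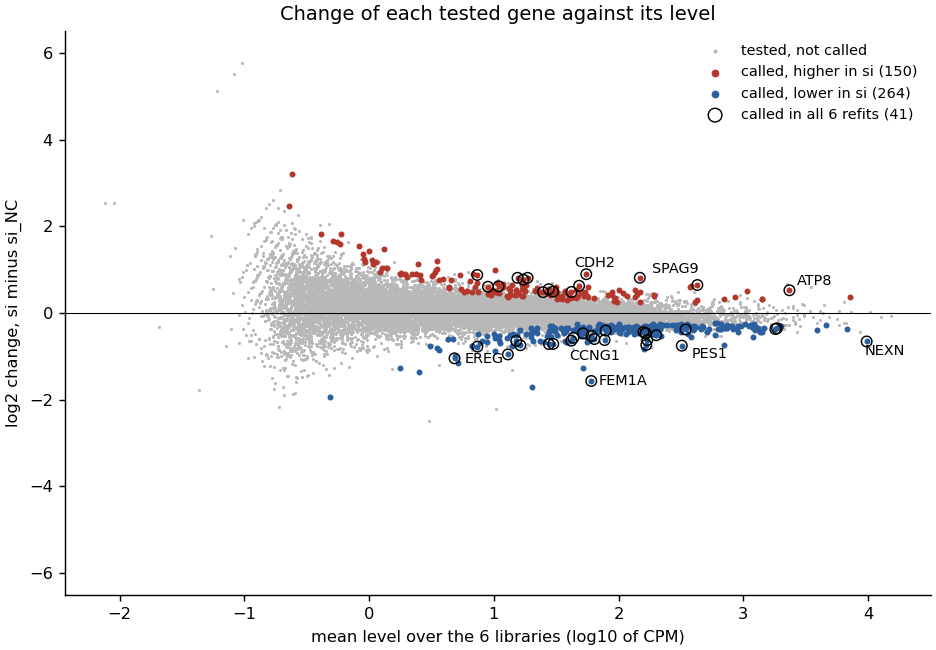
Log2 change of each of the 16300 tested genes (vertical axis) against its mean level over the 6 libraries (horizontal axis, log10 of CPM). Red points are the 150 genes called higher in si, blue points the 264 called lower, and black rings the 41 genes called in each of the 6 refits that left out 1 library; the blue points lie mainly to the right, among genes with many reads.

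The direction of the calls depended on the scaling of the libraries. With counts scaled by library totals in place of TMM, 404 genes were called, 298 upward and 106 downward, and all 150 rises but 106 of the 264 falls were called again. The median change of all genes was then 0.104. Limma on the deposited RPKM, which are scaled by totals too, gave 245 upward and 84 downward. None of the 414 genes changed sign under these settings. The count of calls rested on the fit of all 12 libraries: edgeR on the 6 interference libraries alone called 8 genes, all among the 414 (2357 at an unadjusted p under 0.05). Leaving out 1 library gave 56 calls (without si_NC replicate 1), 69 (si replicate 2), 73 (si replicate 1), 135 (si_NC replicate 3), 685 (si replicate 3) and 1083 (si_NC replicate 2). Without si replicate 3 and si_NC replicate 2 together 1119 genes were called, 416 upward and 703 downward, and 374 of the 414 were among them. These 2 libraries were picked from these same data for their resemblance across the groups. Calls made without them, here and below, are thus a description and no separate support.

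**Figure D2:**
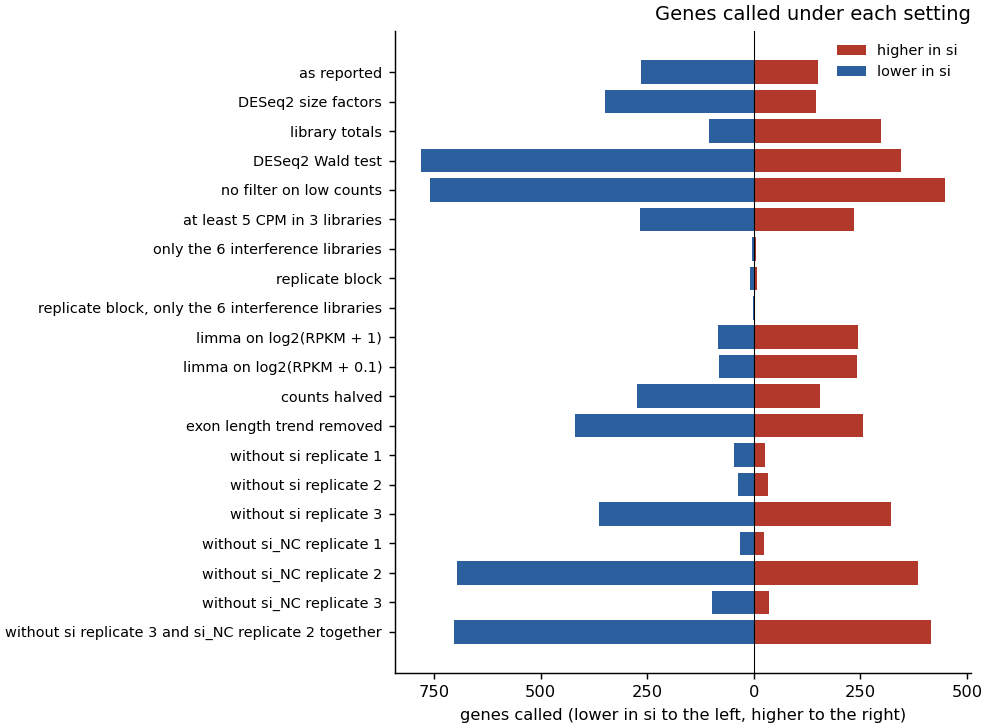
Number of genes called at an adjusted p under 0.05 under each setting, with genes lower in si as blue bars to the left of 0 and genes higher in si as red bars to the right. The reported fit has 264 lower and 150 higher; scaling by library totals turns the balance to 106 lower and 298 higher, and the fit of the 6 interference libraries alone leaves 8.

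In 41 genes the call held in each of the 6 refits without 1 library, 15 upward and 26 downward, and 5 of these carry only a LOC number. All 41 were also called with size factors, library totals, DESeq2, no low-count filter, a filter of 5 CPM, limma on RPKM, halved counts, the exon length trend removed, and without si replicate 3 and si_NC replicate 2 together. Of the 41, 25 also changed at least 1.5-fold, 15 were called with a replicate block, 8 from the 6 interference libraries alone, and 1 from those with the block. The groups did not overlap in 413 of the 414 called genes, against 20.8% of all genes tested. Separate groups in the single genes below thus go with their selection and add no support. The 41 are the genes described first, by role.

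The largest fall among them was that of FEM1A, which encodes a substrate receptor of a cullin ubiquitin ligase. FEM1A stood at 29.2, 27.1 and 34.9 CPM in si and at 96.6, 78.0 and 96.0 CPM in si_NC. Every si library lay below 0.5 of the lowest si_NC library, with no overlap. The log2 change was −1.57 ± 0.21 (edgeR adjusted p = 0.00309), and FEM1A was the 1 gene also called from the 6 interference libraries alone with a replicate block (adjusted p = 0.00809). In the coordinates of the count table (chromosome names from RefSeq by symbol), whose build is not given in the sources used here, it lies on the minus strand of chromosome 7 from 19353551 to 19357132. BTRC, the F-box receptor of another cullin ligase, moved the other way, from 21.5, 25.2 and 20.2 CPM in si_NC to 31.6, 32.8 and 33.6 CPM in si (log2 0.55 ± 0.09, edgeR adjusted p = 0.00786). The E3 ligase UBE3A fell from 193, 170.1 and 183 CPM to 132, 130.1 and 140.3 CPM (log2 −0.44 ± 0.07, edgeR adjusted p = 0.00702). Of 68 listed cullins, adaptors and substrate receptors, 1 rose and 2 fell, FEM1A and ELOC (4.41%, against 2.54% of all genes in either direction), and the list median was 0.01. ELOC, the adaptor elongin C, fell by 0.35 on the log2 scale, and its call ended without si replicate 1 or 2 or si_NC replicate 1 or 3 (log2 −0.33 to −0.29).

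CCNG1, the p53-induced cyclin G1, had the lowest p-value of the comparison. Its 3 si libraries held 122, 128 and 124 CPM and its si_NC libraries 214, 202 and 208 CPM. Replicates lay close together and the groups far apart (log2 −0.74 ± 0.06, edgeR adjusted p = 9.46e-05). The gene lies on the plus strand of chromosome 7 from 75115945 to 75123209. ZMAT3, an RNA-binding zinc finger protein that p53 also induces, fell from 48.3, 51.8 and 52.3 CPM to 33.7, 35 and 29.2 CPM (log2 −0.64 ± 0.08, edgeR adjusted p = 0.00171). XPC, which recognises bulky DNA damage, fell from 379, 396 and 392 CPM to 305, 302 and 289.9 CPM (log2 −0.38 ± 0.06, edgeR adjusted p = 0.00786). Of 27 listed p53 targets 4 fell and none rose (14.8%, against 1.62% of all genes that fell), the fourth being the repair polymerase POLK (log2 −0.44), a call that was lost when si replicate 1 or si_NC replicate 1 or 3 was left out (log2 −0.47 to −0.40). Over the whole list the median was −0.10, or −0.01 under library totals, and 9 of 27 changes were positive. In si replicate 3 the median listed target lay 0.41 below the si_NC mean on the log2 scale, against −0.03 and 0.03 in si replicates 1 and 2. GTF2H1, a subunit of the TFIIH complex of transcription and repair, fell from 79.8, 67.9 and 83.5 CPM to 52.1, 52.8 and 47.4 CPM (log2 −0.60 ± 0.10, edgeR adjusted p = 0.00798).

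Of the 41 genes, those of adhesion, the cytoskeleton and caveolae went both ways. CDH2, the N-cadherin of cell contacts, rose from 42.5, 33.3 and 39.6 CPM to 72.7, 72.4 and 69.4 CPM (log2 0.89 ± 0.09, edgeR adjusted p = 0.000506), the largest rise among the 41. It lies on the plus strand of chromosome 24 from 28655756 to 28904115. NEXN, which encodes the actin-binding protein nexilin, fell from 12546, 11615 and 11513 CPM to 7160.0, 7525 and 7941 CPM (log2 −0.66 ± 0.06, edgeR adjusted p = 0.000313). NEXN carried more than 1 in 100 of the counts in si_NC, and the gap between the groups was wider than the range of either. It lies on the minus strand of chromosome 3 from 66740716 to 66798062. Its exons share 1059 of 4880 bases with FUBP1 on the other strand, which averaged 338 CPM against 9720 CPM. CAVIN1, the coat protein of caveolae, fell from 2006, 2066 and 2026 CPM to 1558, 1526 and 1631 CPM (log2 −0.37 ± 0.06, edgeR adjusted p = 0.00786). The cytoskeletal adaptor PDLIM2 rose from 8.44, 9.0 and 8.38 CPM to 14.4, 12.9 and 12.3 CPM (log2 0.62 ± 0.10, edgeR adjusted p = 0.00786). Among 29 cadherins and catenins CDH2 rose and the protocadherin PCDH7 fell (log2 −0.45), which is 6.9%, against 2.54% of all genes in either direction. The PCDH7 call was lost in every refit except that without si_NC replicate 2 (log2 −0.54 to −0.37).

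Of the 41 genes, 3 encode secreted ligands or potentiators and 1 a scavenger receptor. EREG, which binds and activates the EGF receptor, fell from 20.1, 16.8 and 14.3 CPM to 7.26, 10.1 and 8.97 CPM (log2 −0.96 ± 0.15, edgeR adjusted p = 0.00786). FGF2, basic fibroblast growth factor, fell from 8.54, 9.77 and 9.62 CPM to 6.25, 4.98 and 5.09 CPM (log2 −0.78 ± 0.13, edgeR adjusted p = 0.00859), but 1122 of its 6594 exon bases are shared with NUDT6 on the other strand. RSPO3, which amplifies Wnt signals, fell from 35.4, 36.5 and 39.6 CPM to 25.5, 21.5 and 21.0 CPM (log2 −0.71 ± 0.10, edgeR adjusted p = 0.00625). In each of the 3 genes the highest si library lay below the lowest si_NC library. ACKR3, a scavenger receptor of the chemokine CXCL12, rose from 11.3, 14.7 and 14.5 CPM to 23.4, 23.8 and 24 CPM (log2 0.81 ± 0.11, edgeR adjusted p = 0.00313). Of 18 listed EGF and FGF genes 2 fell and 1 rose (16.7%, against 2.54% of all genes in either direction), and since EREG and FGF2 are 2 of the 3 the list adds 1 gene, the receptor FGFR1, at 106, 106 and 105 CPM against 87.5, 89.3 and 89.6 CPM (log2 0.25 ± 0.06, edgeR adjusted p = 0.0494). The FGFR1 call ended in every refit except that without si_NC replicate 2 (log2 0.24 to 0.26).

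Of the 41 genes, those that act in transcription or on RNA are given next, and they went both ways. RTF1, an elongation factor that works with the PAF1 complex, fell from 255, 223 and 228 CPM to 165, 169 and 161 CPM (log2 −0.51 ± 0.07, edgeR adjusted p = 0.00368), while CDC73, a subunit of that complex, rose from 36.4, 36.9 and 31.4 CPM to 46.3, 47.5 and 52.6 CPM (log2 0.49 ± 0.08, edgeR adjusted p = 0.00889). TAF3, a subunit of the general factor TFIID, fell from 223, 186 and 208 CPM to 135, 142 and 123 CPM (log2 −0.63 ± 0.10, edgeR adjusted p = 0.00786). The groups were separate in all 3, and si_NC replicate 2 was the lowest control in RTF1 and TAF3. COIL, the coilin of Cajal bodies, fell from 55.6, 45.8 and 54.3 CPM to 37.3, 34.1 and 33.3 CPM (log2 −0.57 ± 0.09, edgeR adjusted p = 0.00697). NACC1, a BTB-domain repressor, fell by 0.53 on the log2 scale, with 24.3% of its exon bases shared with STX10 on the other strand. The tRNA methyltransferase TRDMT1 had a log2 change of 0.65, but it shares exon bases with VIM, whose mean was 6390 CPM against 427 CPM, so its level is uncertain.

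Genes of transport, signalling scaffolds and metabolism completed the set. SPAG9, a scaffold of JNK signalling and vesicle transport, rose from 101, 121 and 99.96 CPM to 179, 179 and 207 CPM (log2 0.81 ± 0.09, edgeR adjusted p = 0.000776), and MAP4K4, a kinase upstream of JNK, fell from 2154, 2008 and 2085 CPM to 1611, 1616 and 1668 CPM (log2 −0.35 ± 0.06, edgeR adjusted p = 0.00851). SLC31A1, the high-affinity copper importer, rose from 36.4, 38.0 and 39.2 CPM to 60.7, 57.0 and 57.8 CPM (log2 0.63 ± 0.08, edgeR adjusted p = 0.00171). For SPAG9 and SLC31A1 the rise left a gap between the groups wider than the range of either group. SYT11, a synaptotagmin of membrane traffic, rose from 11.5, 12.3 and 9.85 CPM to 20.5, 20.3 and 18.3 CPM (log2 0.81 ± 0.10, edgeR adjusted p = 0.00171). ATG14, a subunit of the lipid kinase complex that starts autophagosomes, fell from 32.7, 34.1 and 36.2 CPM to 20.8, 22.6 and 19.2 CPM (log2 −0.72 ± 0.11, edgeR adjusted p = 0.00786). ATG14 was the 1 called gene among 34 autophagy genes (2.94%, against 2.54% of all genes in either direction), whose median log2 change was 0.02. CS, the citrate synthase of mitochondria, rose from 26.3, 22.9 and 25.1 CPM to 33.5, 34.4 and 36.6 CPM (log2 0.49 ± 0.08, edgeR adjusted p = 0.00786). The remaining genes with a symbol were NUDT4 (log2 −0.47), CDADC1 (log2 −0.41), MREG (log2 −0.74), MNS1 (log2 −0.62), SLC9C2 (log2 −0.47), PLP2 (log2 0.48) and SRL (log2 0.61). SLC9C2 shares 605 exon bases with the more abundant PRDX6 and CDADC1 2273 of 4544 with an antisense LOC gene, so their levels are uncertain.

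FEM1A, CCNG1, NEXN, ATG14, CDH2, SPAG9, SLC31A1 and ATP8 were the 8 genes called by edgeR from the 6 interference libraries alone. Their log2 changes there were −1.56, −0.73, −0.65, −0.71, 0.90, 0.82, 0.63 and 0.53, and the adjusted p-values ran from 0.00327 for FEM1A to 0.0479 for ATG14 and ATP8.

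**Figure D3:**
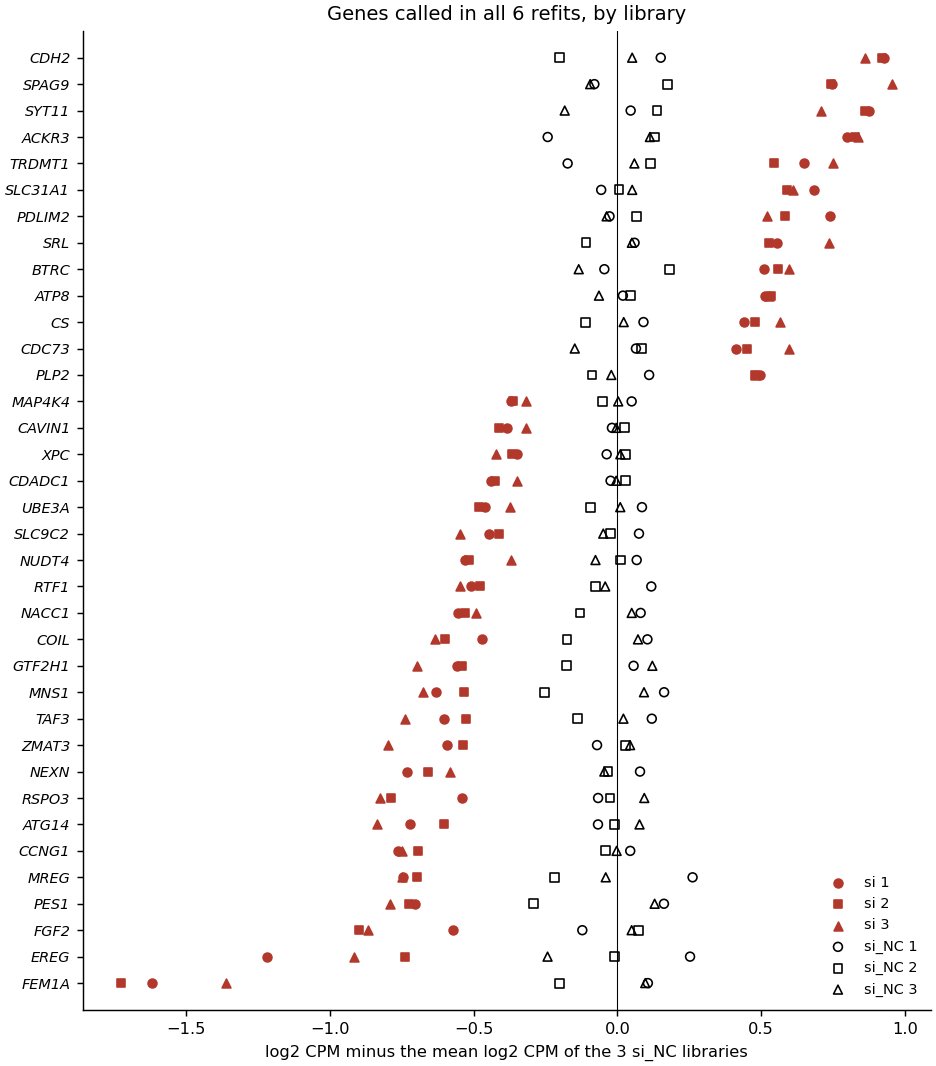
Level of the 36 genes with a symbol that were called in all 6 refits, in each library, as log2 CPM minus the mean log2 CPM of the 3 si_NC libraries (horizontal axis). Filled red symbols are si libraries and open black symbols si_NC libraries, with circles, squares and triangles for replicates 1, 2 and 3; in each gene the red symbols lie together on one side of the black ones, from FEM1A (log2 change −1.57) to CDH2 (log2 change 0.89). The genes were picked by their calls, and the groups did not overlap in 413 of the 414 called genes.

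Ribosome biogenesis factors, the nucleolar proteins that process and assemble ribosomal subunits, were the longest list and the one with the most calls. Shorter lists had higher shares called, among them mitochondrially encoded proteins (61.5%), EGF and FGF genes (16.7%) and p53 targets (14.8%). So had 23 preadipocyte and stromal markers, where 3 rose and 1 fell (17.4%), and each of these calls ended in 3 to 5 of the 6 refits. Of 90 tested, 10 fell and none rose (11.1%, against 1.62% of all genes that fell). Of the 4075 genes with the most reads, whatever their role, 6.13% were called in either direction, with 201 lower and 49 higher. At an unadjusted p under 0.05, 51 of the 90 were lower and none higher, against 3083 of all 16300 genes in either direction. The list's median log2 change was −0.27, against 0.02 for all genes, and 2 of 90 changes were positive. The fall was present under each scaling, with a median of −0.29 with DESeq2 size factors and −0.19 under library totals, where 3 were called. PES1, a core factor of the large subunit, fell most firmly, from 446, 326 and 436 CPM to 245, 241 and 230.0 CPM (log2 −0.75 ± 0.11, edgeR adjusted p = 0.00698), and its call held in all 6 refits. TSR1, a factor of the small subunit, fell from 505, 366 and 492 CPM to 323, 324 and 279 CPM (log2 −0.56 ± 0.11, edgeR adjusted p = 0.0204), and NOL7, a nucleolar protein, from 253, 198 and 157 CPM to 94.7, 137 and 112 CPM (log2 −0.82 ± 0.18, edgeR adjusted p = 0.0303). In PES1 and TSR1 si_NC replicate 2 was the control closest to si. UTP3, NOP14, NOL10, RRP12, EBNA1BP2, GNL2 and DDX10 fell by 0.36 to 0.46 on the log2 scale. TSR1 shares 41.9% of its exon bases with SRR, a gene on the other strand with 33.3 CPM against 382 CPM.

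The list's level by library showed where the controls stood. Summed over the 90 genes it was 21700, 21600 and 18500 CPM in si replicates 1 to 3 and 30600, 21500 and 27400 CPM in si_NC. The sums overlapped, because si_NC replicate 2 lay as low as the 2 higher si libraries. The median gene stood at −0.19, −0.18 and −0.48 on the log2 scale relative to the si_NC mean in si, and at 0.16, −0.25 and 0.09 in the si_NC libraries. Of the 90 genes 28 had all si libraries below all si_NC libraries, as had 1733 of all 16300 genes. In 79 of the 90 the lowest si_NC library was replicate 2. Without that library 44 were called lower (median −0.40), and without it and si replicate 3 together 39 (median −0.32). Without any other single library 1 to 4 were called and the median stayed between −0.34 and −0.20: 1 without si replicate 1 or 2 or si_NC replicate 1, 2 without si_NC replicate 3 and 4 without si replicate 3. In those refits the genes whose call ended had log2 changes of −0.98 to −0.29. The cytosolic ribosomal proteins, which these factors assemble, were displaced in single libraries: 0 of 76 were called by edgeR and 0 by DESeq2, 1 was higher and 10 lower at an unadjusted p under 0.05, and the median of −0.06 became 0.02 under library totals and 0.06 without si replicate 3. With edgeR, 12 of the 76 were called lower with no filter on low counts, 10 lower and 1 higher with the exon length trend removed, 5 lower without si_NC replicate 2, 1 lower without it and si replicate 3, and 1 higher under library totals. The median ribosomal protein gene lay at 0.10, 0.04 and −0.30 in si and at 0.12, −0.18 and 0.07 in si_NC.

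Messenger RNAs made in the mitochondrion moved the opposite way. Of the 13 protein genes of the mitochondrial genome, which encode core subunits of the respiratory chain and ATP synthase, 8 rose and none fell (61.5%, against 0.920% of all genes that rose). Of the 4075 genes with the most reads, whatever their role, 49 rose. All 13 changes were positive under each scaling, but whether the 13 genes changed separately or by a shared shift was not tested. Their summed level was 19700, 19800 and 22400 CPM in si and 16700, 17300 and 16900 CPM in si_NC, with no overlap. ATP8, a small subunit in the membrane part of ATP synthase, rose from 1940.4, 1977 and 1832 CPM to 2730.3, 2776 and 2762 CPM (log2 0.52 ± 0.06, edgeR adjusted p = 0.00171). ND6, a complex I subunit and the one gene of the list on the light strand, rose from 823, 919 and 880.3 CPM to 1163, 1142 and 1427 CPM (log2 0.51 ± 0.09, edgeR adjusted p = 0.00932). ND6 shares 17 exon bases with ND5 on the other strand, and ATP8 shares 40 of 201 with ATP6. Among the genes not called were ATP6 itself (log2 0.15, edgeR adjusted p = 0.202) and COX1 (log2 0.19, edgeR adjusted p = 0.092). The complex I subunits ND1 (log2 0.33), ND2 (log2 0.33) and ND3 (log2 0.31), cytochrome b, CYTB (log2 0.36), and the cytochrome oxidase subunits COX2 (log2 0.26) and COX3 (log2 0.33) rose by 1.2-fold to 1.28-fold. ATP8 alone held in every refit. The ND6 call ended without si_NC replicate 1 (log2 0.47), and the other 6 ended without at least si_NC replicates 1 and 3 and si replicate 1, most also without si replicate 2 (log2 0.23 to 0.39). With the exon length trend removed 2 of 13 were called, and without si replicate 3 and si_NC replicate 2 together 5 were.

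The nuclear genes for mitochondria were examined in 2 lists. Of 60 nuclear-encoded respiratory chain subunits 0 rose and 1 fell (1.67%, against 1.62% of all genes that fell). It was COX7C of cytochrome oxidase, from 1093, 1001 and 1052 CPM to 807, 783 and 739.8 CPM (log2 −0.43 ± 0.08, edgeR adjusted p = 0.0128). COX7C lost its call without si replicate 2 or si_NC replicate 1 (log2 −0.45 and −0.40). Of 28 genes that transcribe and translate the mitochondrial genome edgeR called 0 (DESeq2 2 lower), 24 had a negative change and 6 were lower and 1 higher at an unadjusted p under 0.05. TUFM, the mitochondrial elongation factor Tu, stood at 106, 106 and 104 CPM in si and 128, 111 and 128 CPM in si_NC (edgeR adjusted p = 0.18). The median of these 28 was −0.12, or −0.03 under library totals. The difference between the mitochondrial and the nuclear lists was not tested.

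**Figure D4:**
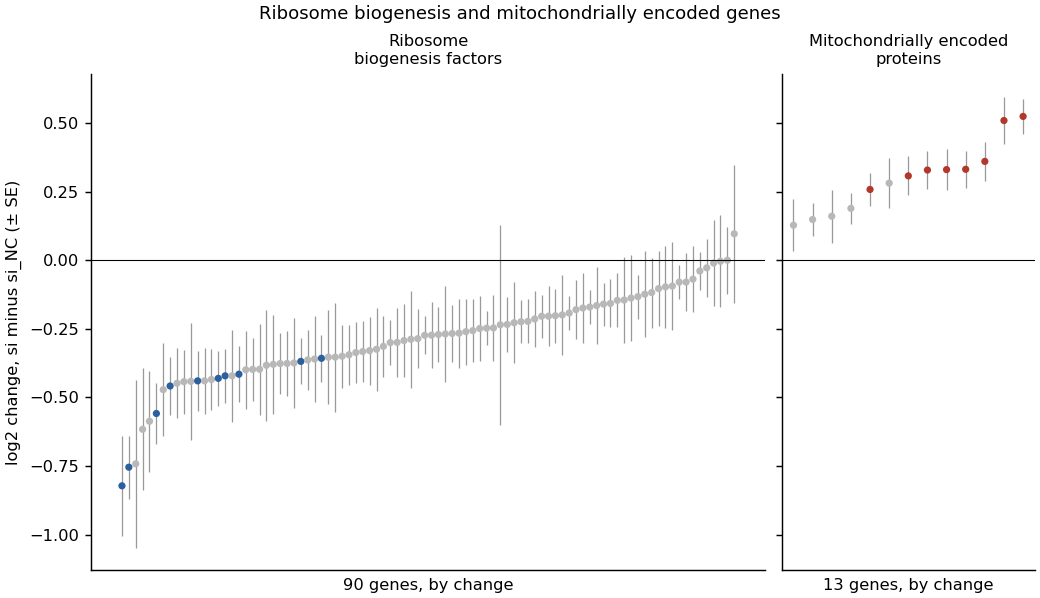
Log2 change with its standard error (vertical axis) of each of the 90 ribosome biogenesis factors (left) and the 13 mitochondrially encoded protein genes (right), sorted by change. Blue points are the 10 genes called lower in si, red points the 8 called higher and grey points genes not called; 88 of the 90 lie below 0 and all 13 lie above it.

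Of 66 splicing factors tested 4 fell and none rose (6.06%, against 1.62% of all genes that fell). That is near the share of the 4075 genes with the most reads called in either direction (6.13%, with 201 lower and 49 higher). At an unadjusted p under 0.05, 24 of the 66 were lower and 1 higher, against 3083 of all 16300 genes in either direction. The list median of −0.14 became −0.05 with 0 called under library totals. RBM25, a splicing regulator, fell from 1555, 1376 and 1426 CPM to 1119, 1141 and 1181 CPM (log2 −0.34 ± 0.07, edgeR adjusted p = 0.0208), and PRPF38B, SRSF5 and SF3B2 fell by 0.30, 0.31 and 0.26 on the log2 scale. All 4 calls ended when any library other than si replicate 3 or si_NC replicate 2 was left out, and that of SF3B2 also without si replicate 3 (log2 −0.36 to −0.23). Chaperones of the cytosol were divided. HSP90AA1, the inducible form of HSP90, rose from 7061, 5602 and 6065 CPM to 7905, 7975 and 8218 CPM (log2 0.36 ± 0.08, edgeR adjusted p = 0.0273), and the cochaperone BAG1 fell from 196, 169.8 and 183 CPM to 148, 147 and 151 CPM (log2 −0.30 ± 0.07, edgeR adjusted p = 0.0397). Of 42 heat shock genes 1 rose and 4 fell (11.9%, against 2.54% of all genes in either direction and 6.13% of the 4075 with the most reads). The others were HSPA1A (log2 −0.34), DNAJA1 (log2 −0.31) and HSP90AB1 (log2 −0.36), and under library totals the 4 falls were not called. The HSP90AA1 call ended without si replicate 1 or 2 or si_NC replicate 3 (log2 0.33 to 0.37), and the 4 falls ended without at least si replicates 1 and 2 and si_NC replicate 1 (log2 −0.39 to −0.25). In the endoplasmic reticulum edgeR called 0 of 35 chaperone and stress genes (6 higher and 7 lower at an unadjusted p under 0.05; DESeq2 called 3 higher and 6 lower), and CALR stood at 5036, 4947 and 5851 CPM against 6326, 6505 and 6314 CPM (log2 −0.27 ± 0.07, adjusted p = 0.059).

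Of 47 matrix glycoproteins and proteoglycans 4 rose and none fell (8.51%, against 0.920% of all genes that rose), and 38 changes were positive with a median of 0.21. MFAP5, a protein of elastic microfibrils, rose from 19.6, 22.5 and 22.9 CPM to 33.6, 32.8 and 27.6 CPM (log2 0.53 ± 0.10, edgeR adjusted p = 0.0148), with TGFBI (log2 0.50), the proteoglycan CSPG4 (log2 0.50) and biglycan, BGN (log2 0.47). The level of the list followed single libraries as well: the median gene stood at 0.11, 0.10 and 0.38 in si and −0.15, 0.20 and −0.05 in si_NC on the log2 scale, so si_NC replicate 2 lay above si replicates 1 and 2. Of 27 matrix proteases and inhibitors 3 rose (11.1%, against 0.920% of all genes that rose). They were TIMP1, the urokinase PLAU and the procollagen protease BMP1 (log2 0.40, 0.48 and 0.34). TIMP1 was at 244, 232 and 181 CPM in si and 164, 165 and 168 CPM in si_NC. TGFB2, a TGF-beta ligand, rose from 11.9, 16.9 and 13.7 CPM to 21.6, 22.0 and 22.6 CPM (log2 0.64 ± 0.11, edgeR adjusted p = 0.00973), and its call ended only without si_NC replicate 1 (log2 0.53). ID2, a target gene of BMP signals, rose from 14.7, 19.5 and 19.2 CPM to 25.5, 26.0 and 27.4 CPM (log2 0.56 ± 0.12, edgeR adjusted p = 0.0209). In all, 3 of 42 genes of the pathway rose (7.14%, against 0.920% of all genes that rose). The remaining call of the 3 was BMP1, which is counted above among the matrix proteases too. Except for TGFB2, the calls of this paragraph ended in 3 to 5 of 6 refits, among them those without si replicate 1 and si_NC replicate 1 (log2 0.29 to 0.61). Of 25 collagens edgeR called 0 and DESeq2 1, with 5 higher and 1 lower at an unadjusted p under 0.05, and COL1A2 stood at 7243, 7172 and 9619 CPM in si and 5095, 7620.0 and 5611 CPM in si_NC (edgeR adjusted p = 0.194).

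Lipid and fat cell genes showed few calls. Of 24 genes of cholesterol synthesis and uptake 1 fell, SC5D, and none rose (4.17%, against 1.62% of all genes that fell), but 10 were lower and 0 higher at an unadjusted p under 0.05 and 21 changes were negative (median −0.28). The list's median gene lay at −0.42 and −0.44 in si replicates 1 and 2 but at 0.03 in si replicate 3, and at −0.05, 0.18 and −0.13 in si_NC. Without si replicate 3 edgeR called 12 of the 24 lower (median −0.42), and 12 without it and si_NC replicate 2 together (median −0.36). SC5D, sterol C5-desaturase, was at 53.1, 50.2 and 60.1 CPM against 74.3, 76.8 and 65.5 CPM, and its call ended in every refit except that without si replicate 3 (log2 −0.48 to −0.36). RXRA, the partner receptor of PPARG, fell from 9.22, 10.7 and 9.68 CPM to 4.89, 6.21 and 7.73 CPM (log2 −0.65 ± 0.16, edgeR adjusted p = 0.0398), the 1 call among 28 adipogenic transcription factors (3.57%, against 2.54% of all genes in either direction). The RXRA call ended without si replicate 1 or 2 or si_NC replicate 1 or 3 (log2 −0.70 to −0.51). The fat cell marker FABP4 varied more within groups than between them, at 5.38, 3.72 and 7.67 CPM in si and 2.88, 13.7 and 8.68 CPM in si_NC (edgeR adjusted p = 0.417).

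The machinery that handles small RNA and the sensors of foreign nucleic acid were examined because the cells had been transfected with an interfering agent. Of 18 genes of RNA interference edgeR called 0, with 1 higher and 0 lower at an unadjusted p under 0.05 and 0 called by DESeq2, and the median was −0.05, or 0.03 under library totals. Their summed level was 1060, 1070 and 1090 CPM in si and 1120, 1110 and 1120 CPM in si_NC. SND1, a nuclease of the silencing complex, stood at 148, 137 and 173 CPM against 158, 168 and 167 CPM. Of 10 sensors of foreign RNA and DNA edgeR and DESeq2 called 0 and 4 were higher at an unadjusted p under 0.05 with 0 lower. EIF2AK2, the kinase that binds double-stranded RNA, stood at 68.5, 68.7 and 83.6 CPM against 68.6, 72.1 and 64.4 CPM (log2 0.11 ± 0.09, edgeR adjusted p = 0.572). The median sensor was at 0.05, 0.17 and 0.39 in si and −0.09, 0.22 and −0.07 in si_NC, so si replicate 3 and si_NC replicate 2 were again the highest of their groups. Of 32 interferon-stimulated genes none rose and 1 fell (3.12%, against 1.62% of all genes that fell). It was the ubiquitin ligase TRIM25, from 89.1, 94.3 and 86.1 CPM to 73.7, 68.4 and 72.2 CPM (log2 −0.33 ± 0.07, edgeR adjusted p = 0.0296), a call that ended without si replicate 1 or 2 or si_NC replicate 1 or 3 (log2 −0.37 to −0.31).

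**Figure D5:**
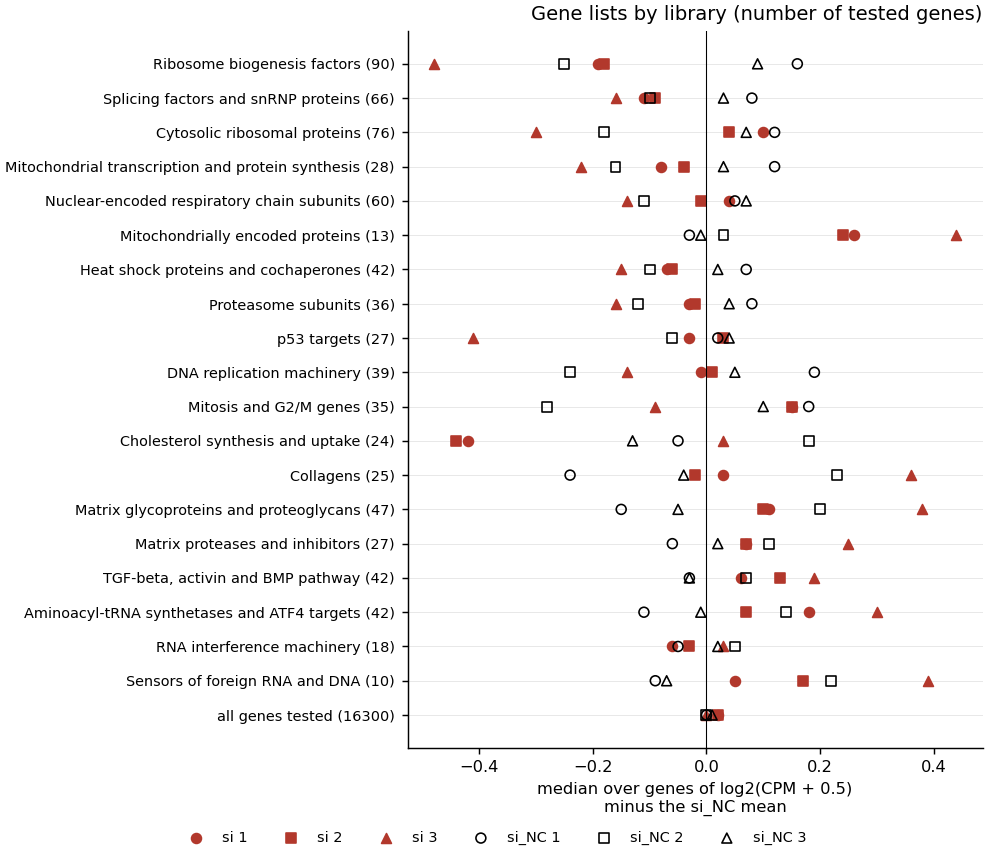
Median over the tested genes of each list (number in parentheses) of log2(CPM + 0.5) minus the gene's mean over the 3 si_NC libraries (horizontal axis), with filled red symbols for si and open black symbols for si_NC libraries. Mitochondrially encoded genes separate the groups, at 0.24 to 0.44 against −0.03 to 0.03, whereas for ribosome biogenesis, ribosomal protein, collagen and matrix genes si replicate 3 and si_NC replicate 2 are displaced in the same direction.

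Large changes were rare and mostly in genes with few reads. Of the 21 genes that rose at least 2-fold, 18 averaged under 2 CPM. SHISA7 was at 0.489, 0.502 and 0.330 CPM in si and 0.0654, 0.0703 and 0 CPM in si_NC, and TRIM6 at 0.326, 0.457 and 0.385 CPM against 0.0654, 0.0703 and 0.0668 CPM. These levels are a few reads per control library, and both calls ended without si replicate 1 or 2 or si_NC replicate 1 or 3. Among better covered genes ZFP36, which destabilises messenger RNAs with AU-rich elements, rose from 2.0, 2.64 and 2.27 CPM to 5.08, 4.36 and 4.46 CPM (log2 1.01 ± 0.18, edgeR adjusted p = 0.0127), a call that ended without si replicate 1 or si_NC replicate 1 (log2 0.92 to 0.93). The transcription cofactor LBH rose from 1.44, 2.04 and 1.14 CPM to 3.26, 3.01 and 3.80 CPM (log2 1.13 ± 0.21, edgeR adjusted p = 0.0154), a call lost without si replicate 1 or si_NC replicate 1 or 3 (log2 0.94 to 1.14). BANK1, a B cell adaptor, fell from 42.8, 17.1 and 32.4 CPM to 11.2, 10.8 and 6.16 CPM (log2 −1.71 ± 0.29, edgeR adjusted p = 0.00973) with controls more than 2-fold apart, and its call ended without si_NC replicate 1 (log2 −1.40). CCNE1, the cyclin E1 of the G1 to S transition, fell from 8.05, 5.98 and 5.48 CPM to 3.18, 3.17 and 3.44 CPM (log2 −0.99 ± 0.21, edgeR adjusted p = 0.0248), and this call ended without si replicate 1 or 2 or si_NC replicate 1 (log2 −0.98 to −0.81). By gene type, 120 of 13215 protein-coding genes rose and 250 fell (2.8%), whereas of 864 pseudogenes 15 rose and 1 fell (1.85%). Of all genes 2.54% were called in either direction. Reads of pseudogenes cannot always be told from those of their parent genes.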

How the data were processed

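RNA from polyadenylated transcripts was sequenced from stranded libraries, per the labels' protocols. The deposited counts are raw reads per gene, made by the authors with fastp 0.23.0 and featureCounts of Subread 1.5.1 per the submitters' processing notes, and RPKM values, which could be recomputed from the counts, exon lengths and column totals. For the aligner, the genome build and the counting strand, the entry is: not given in the sources used here. Columns were matched to samples by title (0 unmapped); si_NC replicate 2 carries a title that differs from its column name by 1 letter. Unnamed entries, 0.0868 to 0.116 percent of the counts, were dropped.

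Genes were kept by filterByExpr (minimum count 10) and tested with edgeR 4.0.16 (R 4.3.3): TMM scaling, a quasi-likelihood F test with a mean per group over all 12 libraries (8 residual degrees of freedom), contrast si minus si_NC, and Benjamini-Hochberg adjustment over 16300 genes. Levels are CPM after TMM scaling. Alternatives used DESeq2 1.42.0, limma 3.58.1 and the settings named in the text. The procedure was tested on simulated data.

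The comparison and the 56 gene lists (1801 symbols, 31 matched by synonym, 23 not matched) were chosen with earlier results of these data known. The rule for naming genes took HGFAC; up to 15 genes each way, with a symbol and called in all 6 refits, by lowest p; up to 10 each way changed at least 2-fold; and up to 4 called members of a list, or its 2 most abundant. Some genes so selected are not named. CAVIN1, MNS1, TAF3, GTF2H1, MAP4K4, NOP14, NOL10, RRP12, EBNA1BP2, GNL2, DDX10, ND1, ND2, ND3 and COX2 were named after their values were seen. Gene symbols of 15029 tested genes (92.2 percent) were found in RefSeq (ARS-UCD2.0), which gave gene types, chromosome names and, where present, synonyms.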

Additional observations from a re-analysis of the deposited data

How the results depend on the processing

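The count of 414 genes was within 1.5 times of the reported one with DESeq2 size factors (495), library totals (404), a filter of 5 CPM (502), halved counts (430) and limma on RPKM (329 and 324). It was 1125 with the DESeq2 Wald test, 1208 with no low-count filter, 677 with the exon length trend removed, 112 with a change of at least 1.5-fold, 8 with the 6 interference libraries, 1119 without si replicate 3 and si_NC replicate 2 together, and 56 to 1083 without 1 library. With the replicate block it was 17, and 1 with the 6 libraries. Deviations of same-numbered libraries from their group means correlated at 0.0935, −0.259 and −0.192. The labels do not say whether same-numbered libraries were paired, and these 3 values cannot decide it. Calls among the 90 ribosome biogenesis factors (10) became 3 (library totals), 27 (DESeq2), 49 (no filter), 1 (limma on RPKM, with 1 or 0.1 added), 2 (1.5-fold), 39 (without both libraries), 0 (6 libraries), 1 and 0 (replicate block, with 12 and 6 libraries) and 1 to 44 without 1 library. Calls among the 13 mitochondrially encoded genes (8) became 2 (length trend), 0 (1.5-fold), 5 (without both), 1 (6 libraries), 1 and 0 (replicate block) and 1 to 8 without 1 library. Of 101 called genes selected by the naming rule, none changed sign under any setting run; 8 stayed called with the 6 libraries and 14 with the replicate block, against 82 with library totals. HGFAC stayed uncalled throughout. At 28944733 to 42703663 counts a library, the median standard error of 0.447 among the 4075 genes with the fewest reads limits what can be called there.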

Other observations

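Insulin-like growth factor signalling held 2 calls among 26 tested genes, both upward (7.69%, against 0.920% of all genes that rose), with 19 positive changes (median 0.17). GRB10, an adaptor that binds the insulin and IGF1 receptors, rose from 27.8, 25.7 and 28.4 CPM to 36.3, 34.7 and 38.5 CPM (log2 0.42 ± 0.07, edgeR adjusted p = 0.0127). IGFBP7 rose from 81.0, 84.4 and 81.2 CPM to 105, 96.7 and 99.8 CPM (log2 0.29 ± 0.07, edgeR adjusted p = 0.0428), and 7.2% of its exon bases are shared with POLR2B on the other strand. The GRB10 call ended without si replicate 1 or si_NC replicate 1, and the IGFBP7 call without si replicate 1 or 2 or si_NC replicate 1 or 3 (log2 0.25 to 0.43).

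Of 42 aminoacyl-tRNA synthetases and ATF4 targets 14 were higher and 5 lower at an unadjusted p under 0.05, and 1 passed the adjusted test each way (4.76%, against 2.54% of all genes in either direction). MTHFD2, a mitochondrial folate enzyme, rose from 14.5, 14.4 and 12.95 CPM to 19.3, 20.4 and 23.2 CPM (log2 0.59 ± 0.11, edgeR adjusted p = 0.0157). NARS, the asparaginyl-tRNA synthetase, fell from 1009.7, 944 and 1040.0 CPM to 798, 787 and 771 CPM (log2 −0.35 ± 0.06, edgeR adjusted p = 0.00971). The NARS call ended without si replicate 2, and that of MTHFD2 without si replicate 2 or si_NC replicate 1 or 3 (log2 0.53 to 0.62).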
